A study of Mus musculus with 2 samples.

Results

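Accessible DNA was described at 37 imprinted genes in mouse cerebellum, out of 55413 genes annotated in GENCODE mouse release M21. The genes were taken by name as known imprinted genes, with no threshold on a measured value, and every name matched a single annotated gene. They fall into 19 imprinted clusters or single loci, and 29 code for proteins and 8 for noncoding RNAs. DNase-seq, which maps where the nuclease DNase I can reach DNA in nuclei, was run on cerebellum of 2 males of the B6CASTF1/J strain, an F1 hybrid, aged 36 days. The labels carry no treatment, number the males separately but give them the same donor entry, and place both in 1 group. No comparison between conditions is therefore possible, and the spread between the 2 libraries may be technical in part. The deposited tables hold no counts split by parental allele, so nothing below says which allele was accessible.

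Imprinted genes are transcribed mainly from the copy inherited from 1 parent. The choice is set by DNA methylation placed in the germ line at differentially methylated regions (DMRs), some of which lie at promoters and some between genes. On the unmethylated copy such a region can act as a promoter, often of a noncoding RNA that silences its neighbours, or can bind the insulator protein CTCF. The zinc finger protein ZFP57 binds a methylated hexamer in many of these regions and keeps the mark in the early embryo. In brain, several of these genes act in growth, feeding behaviour and synapses, and Ube3a is known for maternal expression in neurons.

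Replicate 1 (animal 1) had 140127 peaks and 342409 footprints, which are short protected stretches inside accessible DNA. Replicate 2 had 114404 peaks and 262603 footprints. Peak height is the authors' own signal value, and its scaling between libraries is not given in the sources used here. Heights are therefore read within a library, with the percentile giving the share of that library's peaks that were lower. Where 2 values stand together, replicate 1 comes before replicate 2. Among marker genes of cerebellar cells, 6 of 6 for granule cells carried a peak at the promoter in each animal, as did 4 of 5 for Purkinje cells, with none at Pcp2. Of 6 markers of other tissues, 2 had a peak in replicate 1 and 1 in replicate 2. These were Krt5 (heights 0.385 and 0.731) and, in replicate 1 alone, Emx1 (0.911). The tissue is a mixture of cell types, and fewer accessible cells cannot be told apart from weaker access in each cell.

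Most of the imprinted genes had an accessible promoter. A promoter peak, meaning a peak that overlaps the 1 kb on either side of any annotated start, was present at 31 of 37 genes in replicate 1, 30 in replicate 2 and 29 in both. The background over all annotated genes was 38.3%, 35.3% and 34.2%. Of the 29 protein-coding members 25, 23 and 23 had such a peak, beside 68.2%, 64.9% and 64.2% of all protein-coding genes. Of the 8 noncoding members 6, 7 and 6 had it, beside 33.4%, 30.0% and 28.4% of all long noncoding genes. By general knowledge and not from these data, a germline DMR was placed at the promoter of 17 of the genes. All 17 carried a peak in at least 1 start window in each library, whether or not that window is the DMR. Of these, Peg3 and Usp29 share their highest peak, as do Peg10 and Sgce. Among the other 20 genes the number with a peak in both libraries was 12. The label is per gene and does not separate alternative starts. Gnas and Inpp5f, which have several start windows, count among the 20. By the allele known to be expressed, 19 of 24 paternally expressed and 8 of 11 maternally expressed genes carried one in both libraries. Gnas and Grb10, whose expressed allele depends on tissue, had peaks in both as well.

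CpG-rich promoters are accessible in most tissues, and the imprinted genes were rich in CpG. The median promoter CpG content was 4.75 per 100 bp, beside 1.30 over all genes, each gene being scored by its most CpG-rich start. All genes were split into 5 classes of about equal size by this content. The top class (3.998 CpG per 100 bp or more) held 24 members, and 21 of them (87.5%) carried a promoter peak in both libraries, beside 92.8% of all genes in that class. In the next class 7 of 10 members did, beside 56.7%. The surplus of members with a peak over the background of all genes was thus not seen within the top class.

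Promoter peaks of the imprinted genes had lower median heights than those of all genes. Over members with a peak, the median height of the highest promoter peak was 5.80 (31 genes) and 4.45 (30 genes), and over all genes with a peak it was 6.77 and 5.35. The median percentile was 88.6 and 87.1, a mean of 87.8 over the 2 animals, beside 90.1 and 89.4. Within the top CpG class the members lay lower than other genes in both libraries. There the median was 5.79 (22 genes) and 4.45 (21 genes), beside 11.7 and 7.98 over all genes. Members below that median of all genes numbered 16 of 22 and 14 of 21. These counts are per gene, so the peak shared by Peg3 and Usp29 and that shared by Peg10 and Sgce enter once for each gene. The highest peak of a gene need not lie at its most CpG-rich start. By the same label per gene, those with a germline DMR at the promoter had medians of 5.79 and 4.52 (14 genes), and those without had 5.66 (8 genes) and 4.45 (7 genes). Peg3, Usp29, Ube3a, Copg2, Inpp5f and Mcts2 were at or above the median in both animals. In the next class the 8 members with a peak had medians of 5.89 and 4.92, beside 5.21 and 4.44. These differences were described and not tested.

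**Figure D1:**
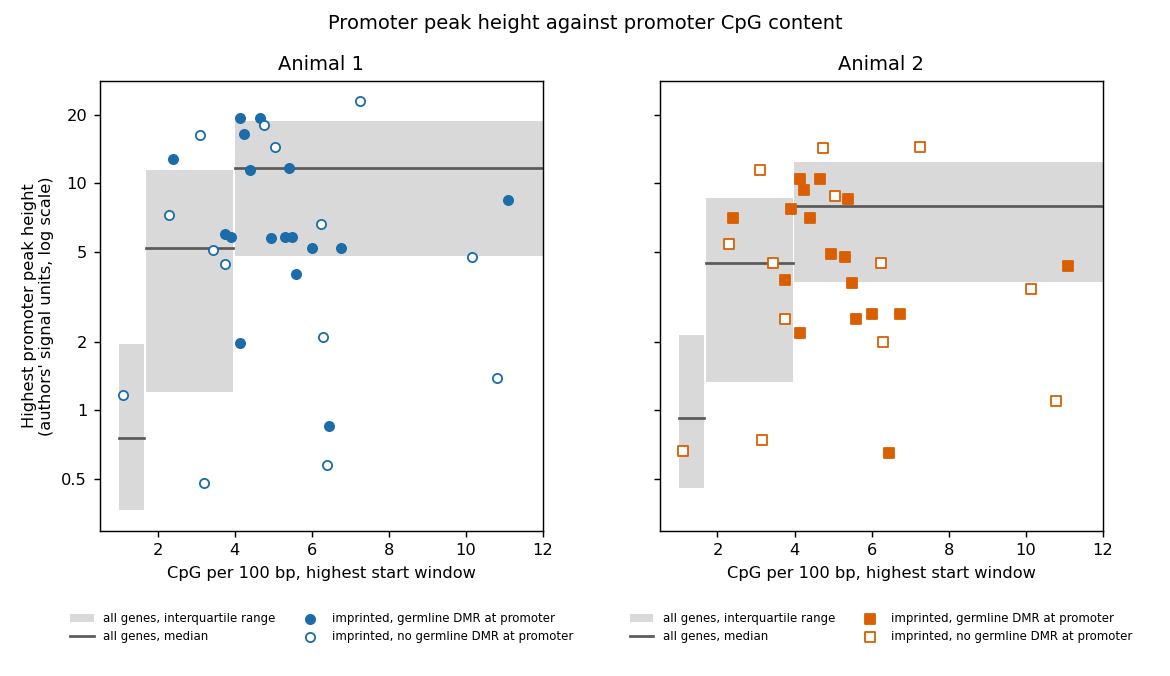
Height of the highest promoter peak (authors' signal units, log scale) against the CpG content of the most CpG-rich start window (CpG per 100 bp), for each imprinted gene with a peak, in animal 1 (left, circles) and animal 2 (right, squares). Filled symbols mark a germline DMR at the promoter, and grey boxes and lines give the interquartile range and the median of all genes with a peak in the upper 3 of 5 CpG classes. In the top class, 16 of 22 members in animal 1 and 14 of 21 in animal 2 lie below the line. The height and the CpG content of a gene can come from different start windows, as they do for Grb10 and Nespas.

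The highest promoter peaks in replicate 1 were those of Ube3a (22.9 and 14.5, at chr7:59228561-59228800 in replicate 1), the shared Peg3 and Usp29 peak (19.5 and 10.5), Inpp5f (18.1 and 14.3), Mcts2 (16.6 and 9.36) and Trappc9 (16.4 and 11.5). At the other end, Igf2, Ndn, Dlk1, Rtl1 and Mirg had no promoter peak in either animal. In the windows of these 5 genes no stretch with a deposited false discovery rate under 0.05 was listed. H19 had a low promoter peak in replicate 2 alone (0.741), and Phlda2 (0.575) and Magel2 (0.477) had one in replicate 1 alone. Of the 28 members whose highest peaks overlapped between the animals, 26 had the larger raw value in replicate 1. The scaling between libraries is not known, so raw values do not compare access between the animals. Kcnq1ot1 (5.80 and 7.73) and Airn (1.98 and 2.20), both antisense RNAs, were higher in replicate 2, and Nespas, also antisense, was higher in replicate 1 (0.851 and 0.652). Over all genes 7.80% of such pairs were higher in replicate 2, beside 7.14% here, so the share itself did not stand out.

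**Figure D2:**
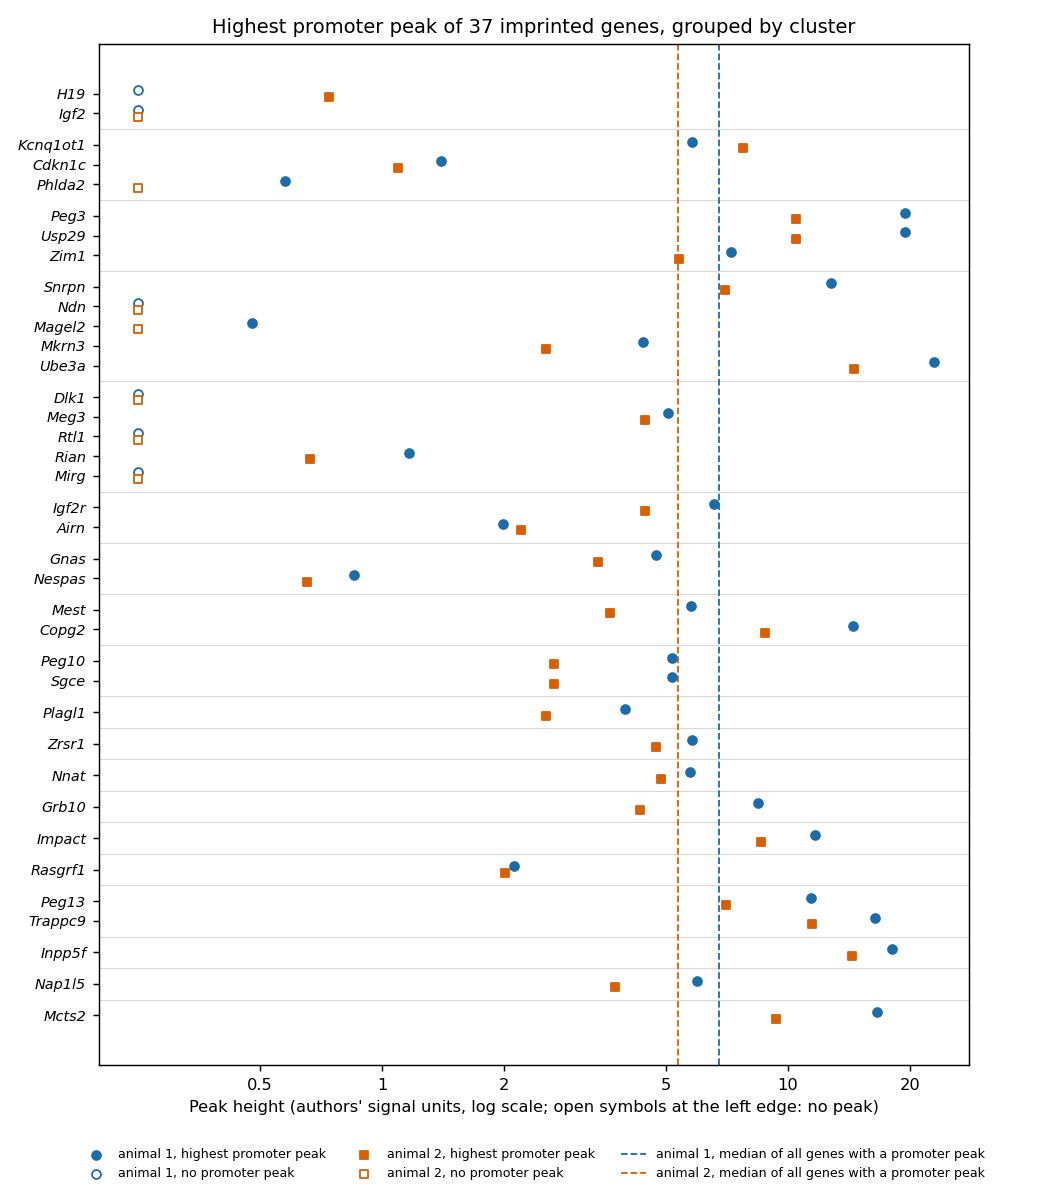
Height of the highest promoter peak (authors' signal units, log scale) of each of the 37 imprinted genes in animal 1 (circles) and animal 2 (squares), in blocks by cluster; open symbols at the left edge mark no peak, and dashed lines the median of all genes with a promoter peak (6.77 and 5.35). Ube3a, Peg3 and Usp29, Inpp5f, Mcts2 and Trappc9 lie farthest right, and Igf2, Ndn, Dlk1, Rtl1 and Mirg have open symbols in both animals.

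At the H19 and Igf2 cluster the peaks upstream of H19, at the imprinting control region, were higher than any at the gene starts. H19 is a noncoding RNA of the maternal copy, Igf2 a fetal growth factor gene of the paternal copy, and CTCF bound upstream of H19 on the maternal copy is known to insulate Igf2 from shared enhancers. No peak touched an Igf2 start window, although its promoter CpG content (7.45 per 100 bp) was in the top class. Upstream of H19, 3 peaks outside promoter windows were present in both animals, all between genes. The peak nearest to the gene had heights of 2.25 and 1.59, the middle peak 3.83 and 2.28, and the far peak 3.14 and 1.501. They ranked at percentiles 75.9 to 83.6 of replicate 1 and 65.9 to 75.9 of replicate 2. The pattern CCGCGNGGNGGCAG, the CTCF site type of this region, occurred 3 times in the DNA within 10 kb of H19, each time on the H19 strand. Read on that strand, its matches ended 2166, 2621 and 3891 bp upstream of the H19 start. The centre of the first match lay in the near peak under a footprint of 22 and 15 bp. That of the second lay in the middle peak under a footprint of 26 and 25 bp. The third lay outside every peak and had no footprint in either animal. Over the whole lists only 21 of 140127 and 21 of 114404 peaks held this pattern. The far peak held no such match, but held the ZFP57 hexamer TGCCGC 2 times, on opposite strands and under a single footprint of 37 and 23 bp. The hexamer also overlaps the start of the CTCF match in the near peak. The 3 peaks of replicate 1 are shown because they carry these sites, on the minus strand of mm10, with the CTCF matches in capitals in the near and middle peaks and the hexamers in capitals in the far peak.
Near peak, chr7:142580221-142580400: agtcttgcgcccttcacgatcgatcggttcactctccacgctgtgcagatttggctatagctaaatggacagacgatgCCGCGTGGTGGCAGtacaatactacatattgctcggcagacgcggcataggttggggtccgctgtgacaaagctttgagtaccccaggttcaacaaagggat
Middle peak, chr7:142580681-142580860: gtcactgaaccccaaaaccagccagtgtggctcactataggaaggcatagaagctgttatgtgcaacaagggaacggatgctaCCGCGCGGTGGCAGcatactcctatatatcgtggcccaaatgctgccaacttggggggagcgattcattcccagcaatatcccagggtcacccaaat
Far peak, chr7:142581721-142581900: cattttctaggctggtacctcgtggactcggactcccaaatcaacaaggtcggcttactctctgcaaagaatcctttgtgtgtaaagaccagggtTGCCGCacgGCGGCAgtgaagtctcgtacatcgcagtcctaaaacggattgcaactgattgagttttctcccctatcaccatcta
In the Igf2 neighbourhood, 3 peaks between genes were found in both animals, at chr7:142672241-142672420 (1.88 and 1.27), chr7:142674932-142675051 (0.499 and 0.395) and chr7:142675761-142675960 (1.88 and 1.32).

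**Figure D3:**
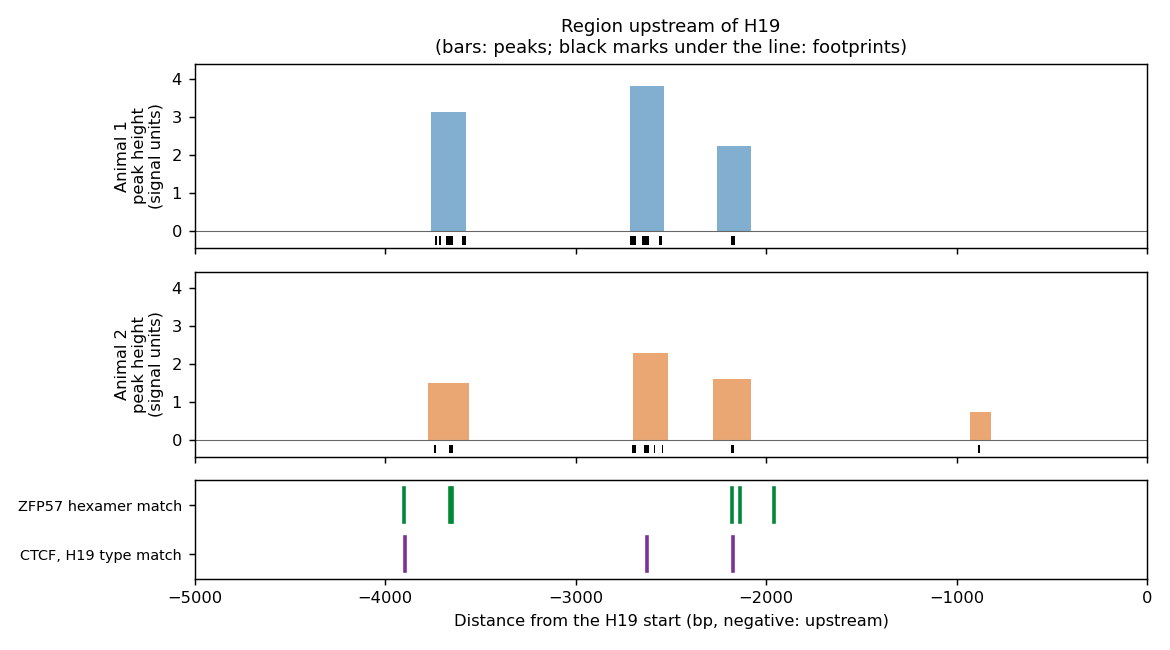
Peaks (bars, height in authors' signal units) and footprints (black marks under the line) in animal 1 (top) and animal 2 (middle), and matches to the H19-type CTCF pattern and the ZFP57 hexamer (bottom), by distance from the H19 start in bp. The same 3 peaks stand in both animals between 2 and 4 kb upstream, 2 of the 3 CTCF matches lie inside them, and the match at 3891 bp lies outside.

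At the Kcnq1ot1 cluster the silencing RNA had a higher promoter peak than Cdkn1c and Phlda2, while Tssc4 and Nap1l4 of the same domain had higher peaks than it did. Kcnq1ot1, a paternal antisense RNA that starts at a germline DMR, had 3 and 4 promoter peaks, the highest 5.80 and 7.73. Cdkn1c, a cell cycle inhibitor gene with 10.8 CpG per 100 bp, had a single promoter peak of 1.39 and 1.10. Phlda2, a regulator of placental growth, had 2 low peaks, the higher 0.575, in replicate 1 and none in replicate 2. Of the further genes of the domain, Tssc4 had 19.9 and 19.02, Nap1l4 22.1 and 18.2 and Cd81 5.22 and 3.39, while Ascl2 had 0.298 and 0.247 and Slc22a18 had none. Between genes, peaks 3030 and 5430 bp upstream of a Cdkn1c start were higher than its promoter peak. The nearer had heights of 5.69 and 2.25 and the other 4.74 and 2.40. A CTCF core match between genes at chr7:143470158-143470171 lay under a footprint in both animals, in a peak of 3.70 and 1.42.

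The Peg3 cluster held some of the highest peaks among the imprinted genes, and they ran on into the first part of the Peg3 gene. Peg3 encodes a zinc finger protein and Usp29 a deubiquitinating enzyme, both paternally expressed from a shared start region. The peak over the Peg3 start had heights of 9.90 and 7.51. The highest peak, 19.5 and 10.5, lay 828 bp downstream of the nearest Peg3 start, in an intron, and within 1 kb of Usp29 starts. Behind it came intronic peaks of 11.1 and 8.40, 7.82 and 6.57, and 4.90 and 4.52. The first 5 kb of Peg3 hold 12 matches to GCCATNTT, the core of the site of the zinc finger protein YY1, all on the minus strand, which is the Peg3 strand. They span 2296 bp, and the remaining 10 matches in the Peg3 neighbourhood, of 22 in all, lay outside peaks. In both animals 9 of the 12 lay in peaks. The centre base of 9 lay under a footprint in replicate 1 and of 7 in replicate 2, and those 7 were under footprints in both, 5 of them inside peaks of both. The highest peak and an intronic peak behind it are shown to give the repeated core, on the minus strand of mm10 with the core matches in capitals.
Highest peak, chr7:6729481-6729700: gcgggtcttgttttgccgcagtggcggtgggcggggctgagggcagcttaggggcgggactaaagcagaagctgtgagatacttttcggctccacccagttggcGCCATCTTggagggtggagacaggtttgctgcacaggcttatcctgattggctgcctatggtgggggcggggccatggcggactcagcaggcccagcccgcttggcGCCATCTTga
Intronic peak, chr7:6727801-6728020: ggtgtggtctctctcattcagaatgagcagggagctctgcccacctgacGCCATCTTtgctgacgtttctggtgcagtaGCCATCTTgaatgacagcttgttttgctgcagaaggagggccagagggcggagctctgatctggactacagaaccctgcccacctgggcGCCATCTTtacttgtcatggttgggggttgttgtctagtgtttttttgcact
Both matches in the highest peak were under footprints in both animals, as were 2 of the 3 in the other. Zim1, a maternally expressed zinc finger gene, had a promoter peak of 7.25 and 5.39. Within Usp29, a peak at chr7:6918401-6918560 (9.15 and 3.27) and another at chr7:6937221-6937400 (5.06 and 1.92) each held a CTCF core match under a footprint in both animals.

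**Figure D4:**
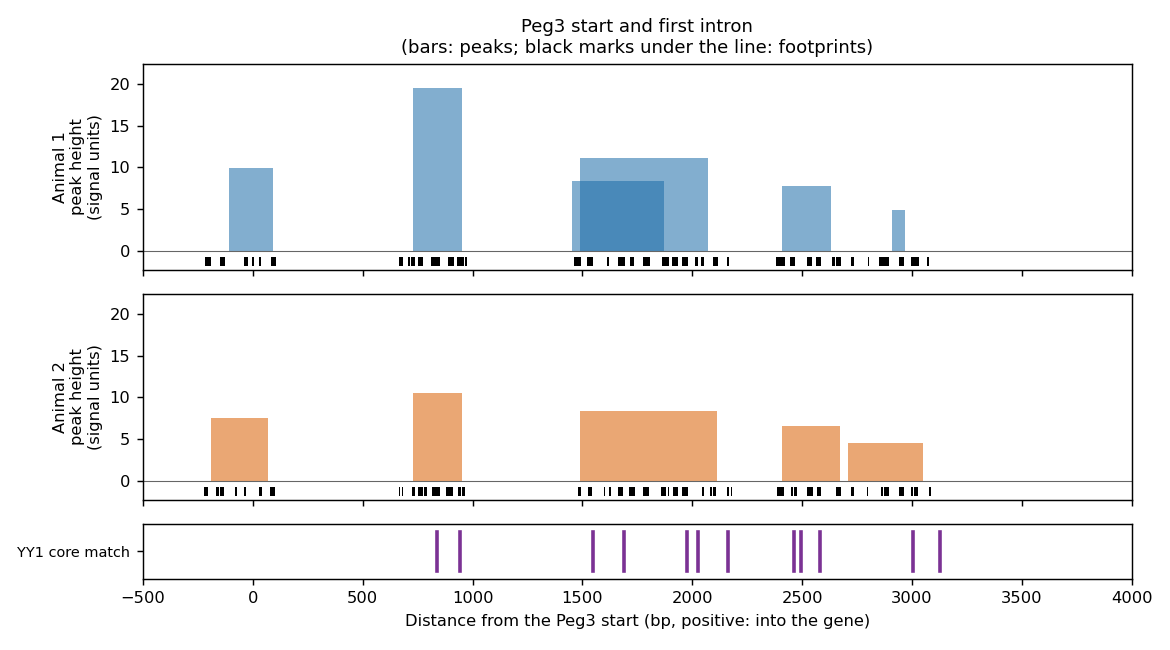
Peaks (bars, height in authors' signal units) and footprints (black marks under the line) in animal 1 (top) and animal 2 (middle), and YY1 core matches (bottom), by distance from the Peg3 start in bp. The highest bar in each animal (19.5 and 10.5) stands between 731 and 950 bp into the gene, and the 12 matches fall under it and the bars behind it or just beside them.

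In the Snrpn cluster the promoters differed widely. Ube3a, a ubiquitin ligase gene, and Snrpn, which encodes a splicing protein and starts at the germline DMR of the cluster, were among the highest. Snrpn had its highest peak at its inner start (12.7 and 7.001), while the far upstream start had a low peak of 0.623 and 0.247. Mkrn3, a ring finger gene, had 4.39 and 2.54. Magel2, of the MAGE family, had low peaks in replicate 1 alone, and Ndn, which encodes necdin, had none in its window. The Ndn result depends on the annotated start, since a CpG-rich peak of 7.32 and 4.46 lay 1721 bp inside the gene, at chr7:62348201-62348380 in untranslated sequence. Peaks over the gene bodies in replicate 1 alone numbered 6 at Magel2 (0.130 to 0.477), 3 at Mkrn3 (0.287 to 0.932) and 1 at Ndn (0.363). The part of the Snrpn peak upstream of the start holds the ZFP57 hexamer 2 times, 1 of them under a footprint in both animals and the other in replicate 1 alone. It is shown on the minus strand of mm10, the strand of the gene, with both hexamers in capitals, here read as their reverse complement.
Snrpn, chr7:60005112-60005240: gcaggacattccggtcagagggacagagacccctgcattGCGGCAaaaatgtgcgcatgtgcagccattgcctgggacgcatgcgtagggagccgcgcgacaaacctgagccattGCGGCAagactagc

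At the Dlk1 and Meg3 cluster the maternal RNA gene Meg3 had promoter peaks and no peak was listed at the promoters of the paternal coding genes Dlk1 and Rtl1. Meg3, a long noncoding RNA, had 5 and 8 promoter peaks with 25 footprints in each animal, and its highest peak was 5.07 and 4.44. Of its exonic CTCF core matches in peaks, that at chr12:109543038-109543051 was under a footprint in both animals, in a peak of 4.56 and 2.38. The other, at chr12:109542170-109542183 in a peak of 2.82 and 1.41, was under a footprint in replicate 1 alone. Dlk1, a transmembrane gene related to Notch ligands, had no promoter peak although its CpG content (6.60 per 100 bp) was in the top class. Rtl1, derived from a retrotransposon, and Mirg, a host of microRNAs, had none either. Rian, a host of small nucleolar RNAs, had peaks in 1 of its 8 start windows, at 1.17 and 0.662. Outside promoter windows, peaks in a Rtl1 intron (chr12:109595841-109596100, 2.70 and 2.76) and beyond Mirg (chr12:109749761-109750020, 1.74 and 1.84) were found in both animals.

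At the Igf2r locus the coding gene had a higher promoter peak than its antisense RNA. Igf2r, which encodes a receptor that clears the Igf2 product, had 6.59 and 4.45, and Airn, which starts inside Igf2r at a germline DMR and silences it in other tissues, had 1.98 and 2.20. Neurons are known to differ from other cells in the use of this pair. The neighbourhood of Igf2r held 17 peaks outside promoter windows in each animal. The highest, at chr17:12758081-12758240 in an intron of both genes, had heights of 10.05 and 7.90. In the neighbourhood of Airn, a peak at chr17:12810561-12810720 (3.03 and 2.49) in an Airn intron held a CTCF core match under a footprint in both animals.

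At several genes with alternative starts, the higher peaks lay at some of the start windows and not at others. Grb10, a signalling adaptor gene, had almost no peak at its upstream, most CpG-rich starts (0.260 in replicate 1, none in replicate 2). Its second window, with starts from 12026324 to 12027971 on chromosome 11, had 8.44 and 4.32. Neuron-specific expression of Grb10 is known to use downstream starts. Gnas, which encodes the stimulatory G protein alpha subunit, had 7 peaks in each animal at the window of its main starts, the highest 4.72 and 3.41. Its most upstream window had 0.732 and 0.504, the next none, and the last 1.92 and 1.94. Nespas, the antisense RNA that starts at a germline DMR there, had 0.851 and 0.652, the lowest of the 17 genes with such a DMR. Mest, a gene of the hydrolase fold family, had its peaks at the third of 4 windows (5.78 and 3.64), and Plagl1, a zinc finger gene, at the second of 4 (3.97 and 2.54) apart from 0.195 in replicate 1 at the first. Impact, a translation regulator gene, had the same peak of 11.6 and 8.56 in 2 adjoining windows and 1.96 and 1.63 at the upstream start. Inpp5f, an inositol phosphatase gene, had 18.1 and 14.3 at its main start. A further 9.87 and 5.85 came at the internal starts near 128687546 on chromosome 7, where an imprinted short transcript is known to begin.

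**Figure D5:**
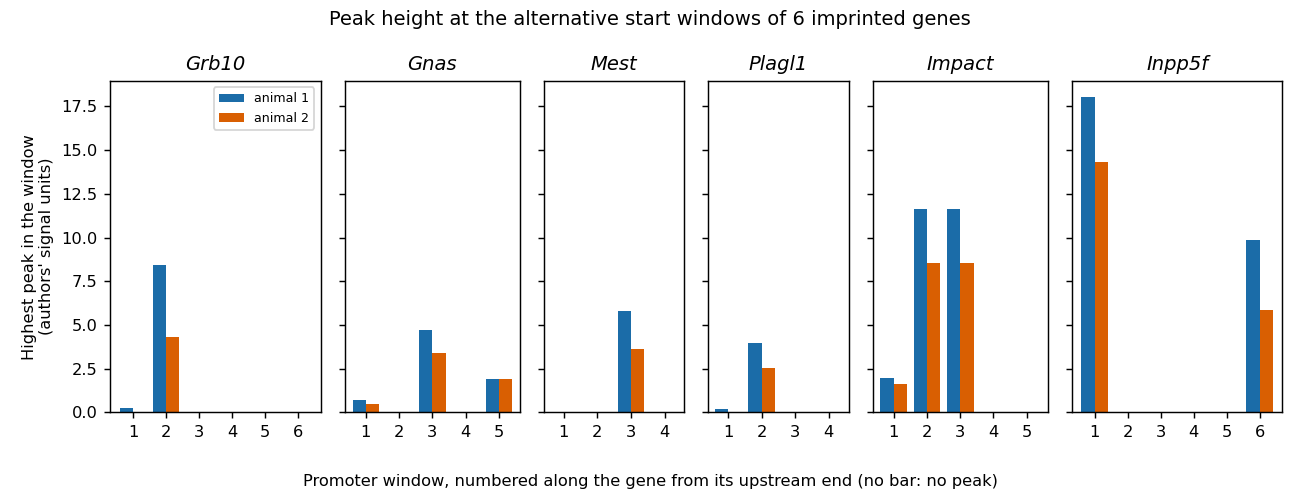
Highest peak (bars, authors' signal units) in each promoter window of Grb10, Gnas, Mest, Plagl1, Impact and Inpp5f in animal 1 (blue) and animal 2 (orange), with windows numbered from the upstream end of the gene and no bar where there was no peak. Grb10 stands at window 2 (8.44 and 4.32) and Mest at window 3 (5.78 and 3.64), while Inpp5f has bars at windows 1 and 6.

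Peg10 and Sgce share a bidirectional promoter. Peg10 derives from a retrotransposon and Sgce encodes epsilon-sarcoglycan. Their shared peak had heights of 5.18 and 2.65, and a peak 1934 bp downstream of the nearest Peg10 start, in its intron at chr6:4749221-4749460, was higher at 17.7 and 9.03. The stretch between the 2 starts holds a ZFP57 hexamer under a footprint in both animals and is shown on the plus strand of mm10 with the hexamer in capitals.
Peg10 and Sgce, chr6:4747208-4747305: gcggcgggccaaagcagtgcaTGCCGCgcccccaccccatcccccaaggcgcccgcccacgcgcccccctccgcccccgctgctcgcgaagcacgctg
Copg2, a coat protein gene that neighbours Mest, had 14.4 and 8.78 and 9 and 10 peaks in its neighbourhood. Of the highest peaks outside promoters there, that in a Copg2 intron (chr6:30883541-30883680) had 1.96 and 2.19.

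Peg13, a noncoding RNA transcribed from a germline DMR inside Trappc9, had 4 promoter peaks in each animal, the highest 11.4 and 7.02 and another of 5.37 and 4.07. Both hold a CTCF core match, CCNNNAGNNGGCNC, under a footprint in both animals. The highest also holds the ZFP57 hexamer 2 times in the part shown, 1 of them footprinted in both animals. It is shown on the minus strand of mm10, the strand of the gene, with the CTCF core and then the hexamers in capitals.
Peg13, chr15:72809961-72810140: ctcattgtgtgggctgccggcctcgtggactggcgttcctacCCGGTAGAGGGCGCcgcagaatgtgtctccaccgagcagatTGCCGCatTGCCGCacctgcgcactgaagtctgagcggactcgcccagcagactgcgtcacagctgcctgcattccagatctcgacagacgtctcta
Trappc9, a membrane trafficking gene, had a promoter peak of 16.4 and 11.5. The highest peak outside promoter windows in any of the neighbourhoods lay 6456 bp upstream of the nearest Trappc9 start, at chr15:73067521-73067800, with heights of 29.7 and 21.6. A second, in a Trappc9 intron at chr15:72668321-72668480, had 8.68 and 6.19. The animals differed in the number of low peaks here. The Peg13 neighbourhood held 18 peaks outside promoter windows in replicate 1 and 2 in replicate 2, and that of Trappc9, which contains it, 67 and 36. A run of 16 peaks found in replicate 1 alone stood upstream of Peg13 from 72812561 to 72820300. Their heights were 0.0596 to 0.358, at most at percentile 22.0 of the list. Over the Trappc9 and Peg13 neighbourhoods 47.9% of replicate 1 peaks overlapped a replicate 2 peak and 85.4% of replicate 2 peaks overlapped a replicate 1 peak, beside 65.8% and 80.4% over the whole lists.

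The remaining loci are single genes, several of them retrogenes copied into an intron of a host gene. Mcts2, a retrogene inside H13, had 16.6 and 9.36, and the H13 intron held a further peak at chr2:152696901-152697060 of 16.04 and 8.21. Nap1l5, a retrogene inside Herc3, had 5.98 and 3.75. Zrsr1, a retrogene inside Commd1 related to a splicing factor, had 5.80 and 4.73. These highest Zrsr1 peaks lay at different places, each with a peak in both animals. The place highest in replicate 1 had 5.80 and 3.56, and that highest in replicate 2 had 5.00 and 4.73. Nnat, a small membrane protein gene of neurons inside Blcap, had 5.74 and 4.87. The Nnat result depends on the annotated starts. Its peak lay 372 and 342 bp downstream of the nearest start, and with GENCODE basic starts only Nnat lost its place among genes with a peak in both animals. Rasgrf1, an exchange factor gene that acts in memory, had 2.11 and 2.00 at its promoter. A more CpG-rich peak 1228 bp upstream of its start, at chr9:89908581-89908780 and with 11.0 CpG per 100 bp, had 4.83 and 3.18. In the neighbourhood of Inpp5f the highest peak outside promoter windows was at chr7:128690281-128690460 (12.02 and 5.89) and held a CTCF core match under a footprint in both animals. The highest such peak near Plagl1 was at chr10:13082561-13082740 (2.87 and 2.52), near Nnat at chr2:157558161-157558360 (1.82 and 1.71), in Gnas at chr2:174312221-174312400 (4.04 and 2.28) and in Grb10 at chr11:11973521-11973680 (1.44 and 0.691). Near Nap1l5 it was at chr6:58904661-58904840 (1.14 and 0.849) and near Impact at chr18:12948261-12948460 (3.59 and 2.11), where a CTCF core match was under a footprint in both animals.

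Peaks outside promoter windows and footprints were compared with the background of all genes. The imprinted genes had a median of 3 such peaks in each animal in the gene body and 10 kb on each side, beside 1 over all genes. Within the top CpG class the median was 3 in each animal over members and 3 and 2 over all genes. Per 100 kb the median over members was 5.84 in each animal, beside 3.05 and 1.69 over all genes. Within the top CpG class it was 5.55 and 6.04 over members and 4.96 and 4.15 over all genes. Footprints in promoter windows had a median of 7 and 6 over members and 0 in each animal over all genes. For protein-coding genes the median was 8 and 6 over members and 6 and 4 over all. Within the top CpG class it was 8.5 and 7.5 over members and 10 and 8 over all, so the members had fewer footprints there. In the next class the members had more, 6.5 and 5.5 beside 3 and 1 over all. Over all 19 clusters together there were 284 and 253 peaks, of which 70.8% and 79.8% overlapped a peak of the other animal. Over the whole lists these shares were 65.8% and 80.4%. Peaks found in both animals had median heights of 1.61 and 1.39, and peaks found in 1 animal 0.390 and 0.405.

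The 4 patterns were then counted on both strands over all peaks of the neighbourhoods, a match being a description of the letters and not evidence of binding. The ZFP57 hexamer occurred in 14.1% and 15.4% of these peaks and in 7.77% and 7.81% of all peaks. The peaks near imprinted genes also had more CpG, which the hexamer contains, with a median of 2.78 per 100 bp in each animal beside 2.00 and 1.82 over all peaks, and its part in the difference was not tested. Of the hexamers in these peaks 29.0% and 20.3% had their centre under a footprint, beside 24.3% and 22.0% over all peaks, and 8 did so in both animals, at 6 clusters. The YY1 core occurred in 4.58% and 5.93% of the peaks, beside 3.55% and 3.98%. Without the Peg3 cluster it occurred in 2.63% and 3.88%, below the share over all peaks in each library. Under a footprint lay 12 of its 18 matches in replicate 1 and 11 of 21 in replicate 2, beside 30.4% and 30.1% of matches over all peaks. Without that cluster these counts were 4 of 7 and 4 of 9. The CTCF core occurred in 4.23% and 4.74% of the peaks, beside 5.54% and 5.89%. Of its 12 matches 11 and 9 lay under a footprint, beside 73.4% and 66.6% over all peaks, and 9 did so in both animals, at 7 clusters. Both H19-type CTCF matches inside peaks upstream of H19 were footprinted in both animals, beside 12 of 20 and 7 of 21 over all peaks.

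A further 51 genes that are imprinted in other tissues or neighbour the clusters were described in the same way, of which 49 were annotated. A promoter peak was present in 34 and 29 of the 49, in both animals in 27 and in neither in 13. Over all annotated genes the share was 38.3% and 35.3%, and 34.2% in both animals. Over protein-coding genes, which make up most of this list, it was 68.2%, 64.9% and 64.2%. The highest in replicate 1 were Dhcr7, a cholesterol synthesis gene (29.3 and 17.1), Chrac1, a chromatin accessibility complex gene (25.2 and 16.5), and Commd1, the host of Zrsr1 (22.2 and 11.2). Ins2, an insulin gene, Nctc1 and Th, which encodes tyrosine hydroxylase, had no promoter peak in either animal. These 3 are named because they come first, in list order, of the 13 without a peak.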

How the data were processed

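DNase-seq peaks, footprints and false discovery rates were deposited for cerebellum of 2 males, on mm10 per the labels. The authors deposited a signal value (height) for each peak, called per animal, and a false discovery rate (a p-value type measure, listed only under 0.05). Depth is unknown, and neither the caller nor the scaling is given in the sources used here, so values carry no counting interval. Footprints were used by position only. The larger of the 2 peak lists of each animal was used.

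Overlaps of at least 1 bp were counted with Python 3.11.15, NumPy 2.4.6 and bedtools 2.31.1 against GENCODE M21, and sequences were read from the mm10 reference. The overlap and pattern search were tested on simulated data. Neighbourhoods were the gene body plus 10 kb on each side, and a peak lay outside promoters when it touched no window of a protein-coding or listed gene. A match found in overlapping peaks was counted once.

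The genes, the further lists and the patterns were chosen with earlier results of these data known, although the choice of genes applied no rule to their values. All 37 genes are named, with up to 2 peaks outside promoters per cluster, the highest in replicate 1 that overlap a replicate 2 peak, and among the further genes the 3 highest and up to 3 without a peak. Sequences were printed for peaks with an H19-type CTCF match and for promoter peaks at germline DMRs with a footprinted match. The far H19 peak, the Peg3 intronic peak and the peaks and further genes given beyond these rules were chosen after their values were seen. With 1 group of 2 animals no test was made.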

Additional observations from a re-analysis of the deposited data

How the results depend on the processing

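Members with a promoter peak in both animals numbered 27 to 32 over the 6 alternatives that keep both animals, beside 29. Windows of 2000 bp added Ndn, Magel2 and Mirg, a minimum at the median height lost Rian and Nespas, and GENCODE basic starts lost Nnat and Grb10. Without replicate 1 and without replicate 2 the number was 30 and 31. The median percentile (87.8) was 81.6 with the smaller peak list, 76.5 with peaks at or above the median height and 86.6 with basic starts, the first pair of which rank a gene within a list of fewer peaks, and 87.1 to 88.6 with a replicate left out. The median number of peaks outside promoters (3) was 1.5 with peaks at or above the median height, 1 in the gene body only and 7 with 50 kb on each side, the last pair by construction. The 3 H19 upstream peaks became 0 in the gene body only and 9 with 50 kb on each side, and were 3 under the other alternatives. Footprint counts do not use the peak lists, so those alternatives were not run for them, and the median stayed between 5.5 and 7.5 under the others. Matches to the 4 patterns in peaks of both animals (80) were 69 with the smaller list and 94 with either replicate left out, alternatives chosen after seeing the data. No paired analysis was possible because both libraries belong to 1 group. Depth is unknown, so a promoter without a peak may be accessible below the limit of the call.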
